A study of Bos taurus with 20 samples.

Results

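6 genes, PINLYP, PRXL2A, PAGE4, AIF1, SSLP1 and DEFB, were followed across 20 RNA sequencing libraries of bovine embryos at day 14, out of 15542 genes in the table. They were chosen by their gene symbols, and selected on measured levels in the same data, which were lower in trophectoderm (TE) isolated from vitrified embryos than in TE of fresh embryos. That contrast is therefore given below as a description without a test. The groups were 2 vitrified whole embryos, 7 samples of vitrified TE, 6 fresh whole embryos and 5 samples of fresh TE. Vitrification stores embryos by cooling so quickly that water solidifies without ice crystals, and the fresh embryos were never frozen in this way. The submitters' design counts 9 vitrified and 12 non-vitrified embryos, flushed from the uterus. The labels do not say at which stage embryos were vitrified, nor which embryo gave which sample, so the p-values speak only of sample-to-sample spread, some of it possibly technical.

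TE is the outer epithelium of the embryo and the source of the placenta. In cattle it elongates before implantation and secretes products such as interferon tau and the pregnancy-associated glycoproteins into the uterine lumen. A whole embryo also holds epiblast, the origin of the fetus itself, and hypoblast, from which the yolk sac lining derives. The 6 genes are no single pathway. PINLYP and SSLP1 encode secreted proteins of the LY6/uPAR family, small folds held together by disulfide bonds. SSLP1 carries the RefSeq synonym SOLD1, under which it is known as a product of bovine trophoblast cells. DEFB encodes a beta-defensin, a secreted antimicrobial peptide that is also rich in disulfide bonds. PRXL2A belongs to a peroxiredoxin-like group with a thioredoxin fold. AIF1, also called IBA1, is a calcium-binding protein that bundles actin and marks macrophages in human and mouse. PAGE4 is an X-linked cancer-testis gene known from human prostate, uterus and placenta.

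Levels are RPKM, reads per kilobase of genomic span per M library reads (M is 1000000). Spans include introns, so levels of different genes are not set against each other. Libraries held 6.01 to 14.5 M reads. Fresh TE libraries did not overlap with the rest in several library measures. They had 6497 to 7207 genes with at least 10 reads, against 8003 to 9803 in the other 15. Listed genes took 2.03 to 3.09 M reads in fresh TE and 3.51 to 8.73 M in the others, or 33.8 to 40.3% and 57.5 to 63.9% of all reads, and mitochondrial messenger RNA made up 1.09 to 1.41% of listed-gene reads against 3.01 to 9.87%. Fresh TE 1 and 2 differed only slightly beyond counting error, with a chi-square of 1.79 for each degree of freedom over genes. The value was 1.45 for fresh TE 3 and 4, and 10.3 to 19.5 for the remaining 8 pairs of fresh TE libraries. Whether fresh TE 1 and 2, or 3 and 4, came from 1 sample is not in the labels, so folds are also given with each of these near-identical pairs averaged. All 9 trophectoderm markers were found, and they summed to 2279 and 2731 RPKM in vitrified embryos, 1967 to 2969 in vitrified TE, 1389 to 2072 in fresh embryos and 2115 to 2711 in fresh TE. Most of these sums came from the epithelial keratins KRT18 and KRT8, and the summed ranges overlapped between the TE groups. As single genes the markers did not move together. KRT8 had 859 ± 113 RPKM in vitrified TE and 163 ± 16.9 in fresh TE, while KRT18 had 1518 ± 280 and 2153 ± 259. Of the 9 markers, 6 were called higher in vitrified TE, KRT8 among them, and 2 lower, KRT18 among them. Epiblast markers, of which ZFP42 contributed most, summed to 75.1 and 99.2 RPKM in vitrified embryos, 13.2 to 41.8 in vitrified TE, 7.46 to 64.2 in fresh embryos and 0 to 0.474 in fresh TE. Hypoblast markers, mostly APOA1, summed to 690 and 200 RPKM in vitrified embryos 1 and 2. They summed to 588 to 1251 in vitrified TE, 561 to 989 in fresh embryos and 150 to 322 in fresh TE. The TE groups thus differed in these markers and library measures as well as in vitrification, and the part of such differences in the levels below was not tested. In samples of many cells, fewer cells of a type and less RNA per cell cannot be told apart.

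All 6 genes had lower levels in every vitrified TE library than in every fresh TE library, the feature for which they were picked. Over 10599 genes tested, 3.96% showed that order. A stricter statement, that every fresh TE library stood above all 15 others, held for PINLYP, PRXL2A, AIF1 and DEFB, which is 4 of 6, and for 1.67% of all genes tested. It failed for PAGE4, for which fresh embryos 2, 3 and 5 and vitrified embryo 1 lay above fresh TE 5, and for SSLP1, for which vitrified embryo 2 lay above 3 fresh TE libraries. On the log2(RPKM + 1) scale, which understates differences of low genes, the differences of vitrified minus fresh TE ranked 3rd lowest (PINLYP), 4th (PRXL2A), 6th (PAGE4), 8th (AIF1), 12th (DEFB) and 136th (SSLP1) of 10599. The choice had no numerical threshold, so no gene stands just outside it. The deposited values call 75.6% of all genes in this contrast (limma, adjusted p under 0.05), 69% higher and 6.66% lower in vitrified TE.

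**Figure D1:**
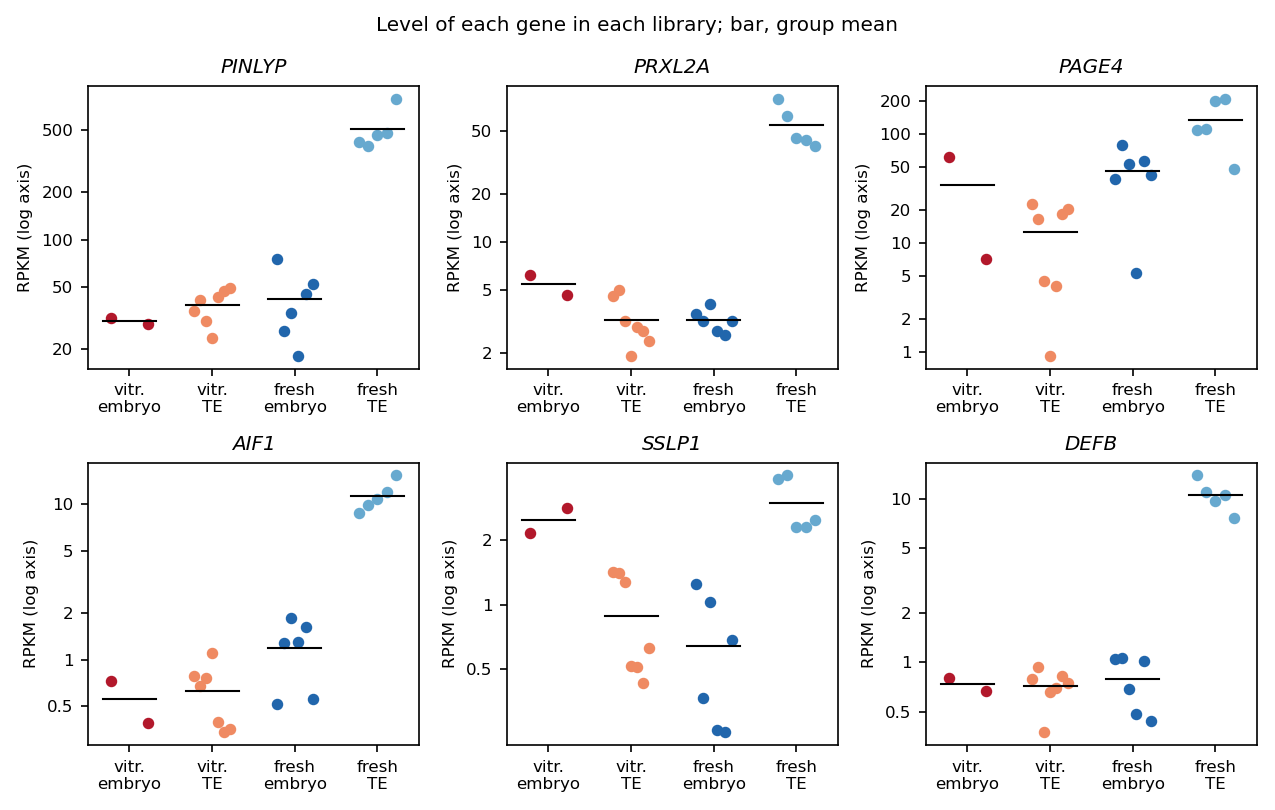
RPKM of each gene in each library on a log axis, 1 panel per gene, with vitrified embryos, vitrified TE, fresh embryos and fresh TE from left to right; points are libraries and bars are group means. In 4 panels all fresh TE points lie above all other points, while PAGE4 in fresh TE 5 (47.5 RPKM) lies among whole embryos and SSLP1 in vitrified embryo 2 (2.81 RPKM) lies among fresh TE.

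Of the secreted LY6/uPAR proteins, PINLYP (chromosome 18, 52120387 to 52124418, UMD3.1, plus strand) had 31.5 and 28.8 RPKM in vitrified embryos. Vitrified TE had 23.5 at the lowest, 41.2 at the median and 48.7 at the highest, fresh embryos had 18.1, 39.3 and 74.7, and the 5 fresh TE libraries had 418, 394, 465, 481 and 795 RPKM. The vitrified TE, vitrified embryo and fresh embryo ranges overlapped, and all lay far below fresh TE. Means were 38.3 ± 9.20 RPKM in vitrified TE (SD, n = 7) and 511 ± 163 in fresh TE (SD, n = 5), and the fresh mean was 13.3 times the vitrified mean. Fresh TE 5 alone reached 795, and with near-identical libraries averaged the fresh TE mean was 558 ± 208 (n = 3). In fresh whole embryos, which contain TE, the mean was 41.5 ± 20.3 (n = 6), so the fresh TE mean was 12.3 times that of fresh embryos. These levels rested on 443 to 21451 reads per library.

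SSLP1 (chromosome 29, 29453500 to 29459846, plus strand) showed another pattern. It had 2.15 and 2.81 RPKM in vitrified embryos. In vitrified TE it had 0.428 at the lowest, 0.6254 at the median and 1.42 at the highest, in fresh embryos 0.253, 0.522 and 1.25, and in fresh TE 3.88, 4.01, 2.31, 2.30 and 2.47. Vitrified embryos thus overlapped with fresh TE and stood above all vitrified TE and all fresh embryos. Within vitrified TE, samples 1 to 3 had 1.42, 1.41 and 1.27 RPKM and samples 4 to 7 had 0.514, 0.512, 0.428 and 0.6254. The fresh TE mean of 2.99 ± 0.873 (n = 5) was 3.39 times the vitrified TE mean of 0.882 ± 0.457 (n = 7), 4.69 times the fresh embryo mean and 1.21 times the vitrified embryo mean. The lowest SSLP1 read count was 10, in fresh embryo 4 (0.259 RPKM), with an exact 95% Poisson interval of 4.8 to 18.4. That interval covers counting error only. The lowest level, in fresh embryo 5, rested on 18 reads.

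DEFB (chromosome 27, 5457175 to 5465029, plus strand) had 0.800 and 0.668 RPKM in vitrified embryos. Vitrified TE had 0.374, 0.743 and 0.939 at the lowest, median and highest, fresh embryos had 0.437, 0.856 and 1.06, and fresh TE had 13.9, 10.9, 9.63, 10.6 and 7.67. Means of these 3 lower groups lay between 0.717 and 0.790 and their ranges overlapped. The fresh TE mean of 10.54 ± 2.27 (n = 5) was 14.7 times the vitrified TE mean of 0.717 ± 0.177 (n = 7) and 13.3 times the fresh embryo mean of 0.790 ± 0.292 (n = 6). Beta-defensin genes of cattle form a cluster of similar copies, so which copy gave these reads is uncertain. EBD, another defensin gene 18.4 kb away, had at most 6 reads in any library.

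The redox gene PRXL2A (chromosome 28, 36008547 to 36026991, plus strand) had 6.20 and 4.66 RPKM in vitrified embryos. Its lowest, median and highest levels were 1.93, 2.93 and 4.95 in vitrified TE and 2.60, 3.18 and 4.10 in fresh embryos, and fresh TE had 79.2, 61.9, 44.8, 44.0 and 39.998 RPKM. No library outside fresh TE exceeded 6.20, and both vitrified embryos lay above all fresh embryos. The fresh TE mean of 54.0 ± 16.4 (n = 5) was 16.6 times the vitrified TE mean of 3.25 ± 1.12 (n = 7) and 16.8 times the fresh embryo mean of 3.22 ± 0.538 (n = 6). Between vitrified TE and fresh embryos the means differed 1.01-fold, less than their spread.

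AIF1 (chromosome 23, 27503183 to 27505457, minus strand) had 0.730 and 0.393 RPKM in vitrified embryos. Vitrified TE had 0.341, 0.678 and 1.10 at the lowest, median and highest, fresh embryos had 0.514, 1.29 and 1.85, and fresh TE had 8.83, 9.81, 10.9, 11.96 and 15.3. All groups but fresh TE overlapped. Fresh TE averaged 11.4 ± 2.502 (n = 5), which was 18.0 times the vitrified TE mean of 0.632 ± 0.283 (n = 7) and 9.59 times the fresh embryo mean of 1.18 ± 0.544 (n = 6). Vitrified TE values rested on only 6 to 20 reads per library (exact 95% Poisson interval of the lowest count 2.2 to 13.1), and fresh TE values on 124 to 233.

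PAGE4 (chromosome X, 92587042 to 92591233, plus strand) had a wider range within each group than the other 5 genes did, by the ratio of the highest to the lowest level. It had 61.2 and 7.11 RPKM in vitrified embryos, an 8.61-fold gap between 2 libraries of 1 group. Vitrified TE ranged from 0.928 through a median of 16.8 to 22.7, a 24.5-fold range, and fresh embryos from 5.33 through 47.8 to 80.2, a 15.04-fold range. Fresh TE had 110, 110, 200, 211 and 47.5 RPKM, and fresh TE 5 lay below 4 of the 15 other libraries. The fresh TE mean of 136 ± 68.6 (n = 5) was 10.8 times the vitrified TE mean of 12.6 ± 9.09 (n = 7) but only 2.94 times the fresh embryo mean of 46.1 ± 24.7 (n = 6). The lowest vitrified TE value rested on 31 reads, with an exact 95% Poisson interval of 21.1 to 44 reads.

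How far the levels stood apart depended on scaling. Each gene's fresh TE mean exceeded its vitrified TE mean under all 3 scalings by reads and with near-identical libraries averaged. The genes were picked for that order. As deposited, the folds of fresh over vitrified TE means were 3.39 for SSLP1 and 10.8 to 18.0 for the other 5 genes. Per M listed-gene reads they were 5.37 and 16.5 to 27.7, and with median-ratio scaling they were 7.49 and 23.2 to 38.8. Averaging the near-identical libraries gave 3.30 for SSLP1 and 9.61 to 19.0 for the others. Values as deposited therefore gave smaller folds than the other scalings did. The median difference of all tested genes, vitrified minus fresh TE, was 0.18 as deposited, 0.10 per M listed-gene reads, 0.02 with median-ratio scaling and -0.01 with quantile normalization on the log2 scale, and the 6 genes lay below it in each case.

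**Figure D2:**
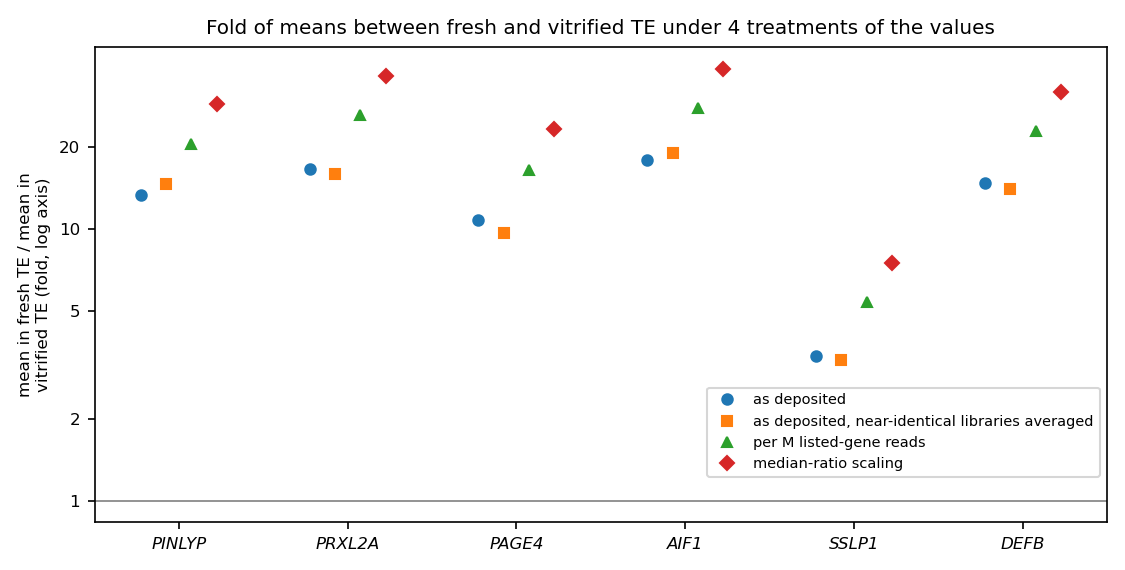
Mean in fresh TE divided by mean in vitrified TE for each gene (fold, log axis), with values as deposited, with near-identical libraries averaged, per M listed-gene reads and with median-ratio scaling; the line marks equal means. SSLP1 has the lowest fold in each case (3.30 to 7.49) and every point lies above 1.

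Whether vitrification was also accompanied by a change in whole embryos was asked of 2 vitrified and 6 fresh whole embryos. The stated reason for the choice of the genes was the TE contrast, not these libraries. The choice was made with earlier results of these data known, though, so its independence of whole embryos is not assured. The spread in the fit was also shared with the TE libraries, which the choice did use. SSLP1 rose in vitrified embryos, and none of the 6 genes was called lower at the threshold. SSLP1 was higher by 1.12 ± 0.26 (SE) on the log2(RPKM + 1) scale (limma, Benjamini-Hochberg adjusted p = 0.0030 over all 10599 genes), in both vitrified embryos, and its mean of 2.48 ± 0.470 RPKM (n = 2) was 3.89 times the fresh mean of 0.638 ± 0.422 (n = 6). Its direction was thus opposite to that in TE. With only whole embryos in the fit the limma adjusted p of SSLP1 was 0.015. Without vitrified embryo 2 the difference was 0.98 with a limma adjusted p of 0.075, and adjusted p ranged from 0.0016 to 0.075 over all alternatives. PRXL2A was 0.61 ± 0.26 higher and missed the threshold (limma adjusted p = 0.081), although both vitrified embryos exceeded all fresh embryos. With only whole embryos in the fit PRXL2A passed (limma adjusted p = 0.039). It missed the threshold under the 27 other alternatives, and its difference was 0.37 with median-ratio scaling, 0.28 with quantile normalization and 0.30 with a replicate block (limma adjusted p = 0.40, 0.54 and 0.31). The differences of AIF1 (-0.45 ± 0.23, limma adjusted p = 0.15), PINLYP (-0.31 ± 0.38, 0.58), PAGE4 (-0.74 ± 0.99, 0.60) and DEFB (-0.03 ± 0.18, 0.92) did not pass, which does not show equal levels.

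Thus 1 of 6 genes was called in whole embryos, against 30.9% of all genes tested in either direction (26.9% of all genes higher and 3.94% lower). The median of the 6 differences was -0.17, against 0.06 over all genes tested. Both vitrified embryos lay above all fresh embryos for SSLP1 and PRXL2A, an order that 29.4% of all genes showed. Of 16 tested early conceptus secretions other than SSLP1, 1 was higher in vitrified embryos, 1 was lower and 14 did not pass. The higher was PAG2, a pregnancy-associated glycoprotein (4.13 ± 2.42 against 0.883 ± 0.386 RPKM, log2 difference 1.39, limma adjusted p = 0.0040), and the lower was IFNT, which encodes interferon tau (3.25 ± 0.614 against 12.9 ± 5.27 RPKM, log2 difference -1.62, limma adjusted p = 5.5e-04). Both belong to families of similar copies whose reads may be shared. The epiblast marker sum of 75.1 and 99.2 RPKM in vitrified embryos lay above the 7.46 to 64.2 of fresh embryos. That sum was mostly ZFP42 (73.0 ± 2.31 against 24.5 ± 18.6 RPKM). POU5F1, NANOG and SOX2 did not pass in whole embryos, and their SDs in vitrified embryos exceeded their means. The part of epiblast in these differences was not tested.

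**Figure D3:**
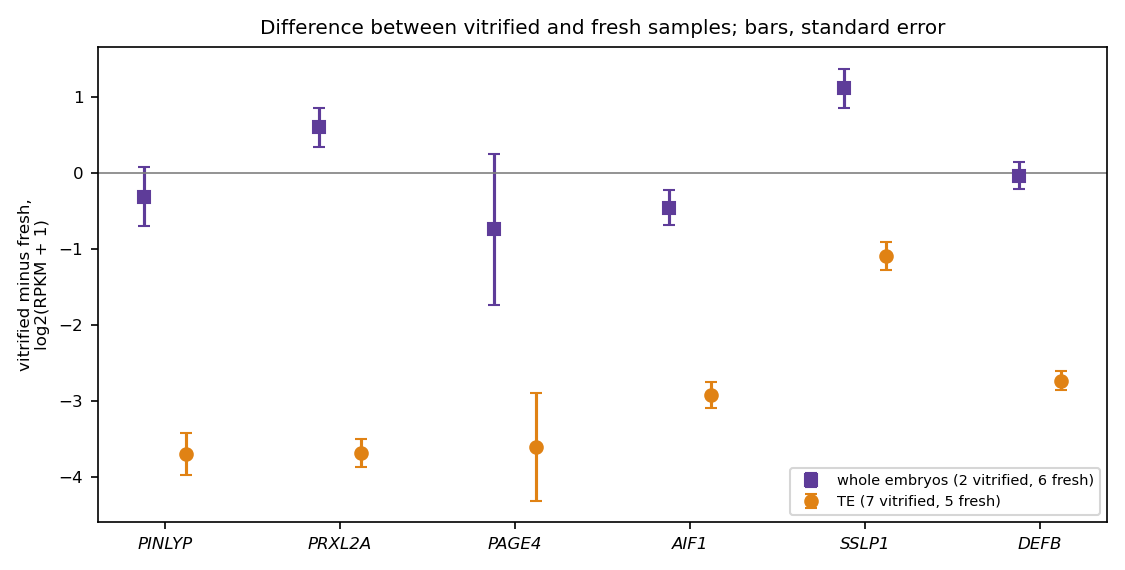
Difference of vitrified minus fresh samples in log2(RPKM + 1) for each gene, in whole embryos (squares) and in TE (circles, the contrast used to pick the genes); bars are standard errors from the model of 4 groups. All 6 circles lie below 0, from -3.69 to -1.09, and SSLP1 in whole embryos lies at 1.12.

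Among samples that had all been vitrified, whole embryos and TE were close for DEFB (vitrified embryo mean 1.02 times the vitrified TE mean), AIF1 (0.888) and PINLYP (0.787). SSLP1 was 2.81 times, PAGE4 2.71 times and PRXL2A 1.67 times as high in vitrified embryos as in vitrified TE. Only for SSLP1 did the vitrified embryo and vitrified TE ranges not overlap. These comparisons share the vitrified TE libraries with the contrast that picked the genes and were not tested.

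The 5 fresh TE libraries did not rank the 6 genes alike. Fresh TE 5 had the highest PINLYP, at 156% of the fresh TE mean, and the highest AIF1, at 135%. The same library had the lowest PAGE4 (35.0%), PRXL2A (74.1%) and DEFB (72.7%). Fresh TE 1 had the highest PRXL2A (147%) and DEFB (132%) and the lowest AIF1 (77.7%). Fresh TE 3 and 4 had the highest PAGE4, at 147 and 155%, and the lowest SSLP1, at 77.1 and 76.7%. Within the near-identical pairs, PAGE4 differed little between fresh TE 1 and 2 (81.1 and 81.3%), while PRXL2A differed more (147 and 115%).

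**Figure D4:**
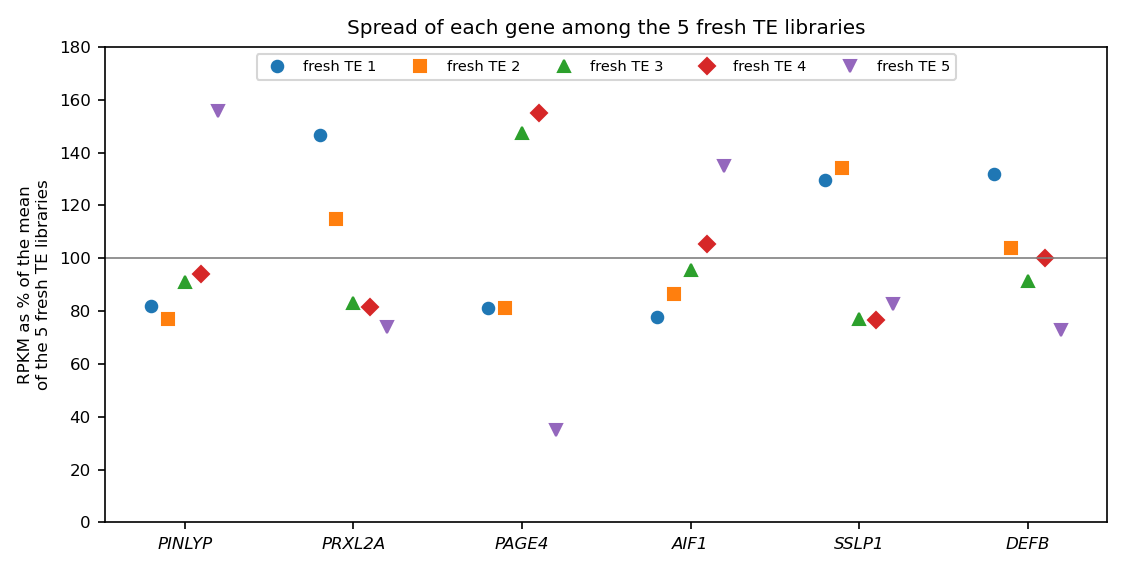
Level of each gene in each of the 5 fresh TE libraries as a percentage of the mean of the 5 (linear axis); symbols mark libraries. Fresh TE 5 lies at the top for PINLYP and AIF1 and at the bottom for PRXL2A, PAGE4 and DEFB.

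AIF1 was set beside other markers of macrophages and leukocytes, of which 11 of 16 were found in the table. Their levels summed to 3.22 and 2.47 RPKM in vitrified embryos 1 and 2. The sums were 2.87 to 5.37 in vitrified TE, 1.66 to 2.89 in fresh embryos and 0.478 to 0.934 in fresh TE. The sum was lowest in the group with the highest AIF1, but it rested mostly on CD68, with CD14 next. C1QA, CSF1R and CD163 had slightly higher means in fresh TE than in vitrified TE, all at or near 0 (at most 0.0231 RPKM in fresh TE). The receptor gene CSF1R had at most 1 read in any library, the scavenger receptor gene CD163 and the complement gene C1QA at most 2, and the myeloid factor gene SPI1 at most 12. Of 3 markers tested in TE, all were higher in vitrified TE, as were 69% of all tested genes. CD68, a lysosomal glycoprotein, had 3.17 ± 1.04 RPKM in vitrified TE and 0.380 ± 0.163 in fresh TE (log2 difference 1.56, limma adjusted p = 1.3e-07). CD14, a lipopolysaccharide co-receptor, had 0.643 ± 0.223 RPKM in vitrified TE and 0.244 ± 0.0992 in fresh TE, 0.39 higher (limma adjusted p = 7.6e-04) and LAPTM5 0.03 higher (0.031), or -0.01 under quantile scaling. Under median-ratio and quantile scaling 1 of the 3 was higher and none was lower.

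**Figure D5:**
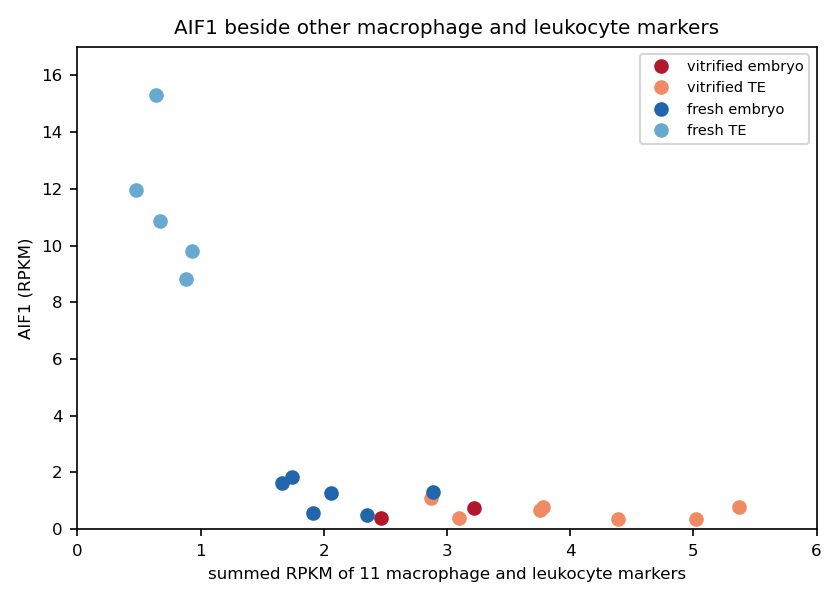
AIF1 level against the summed level of 11 macrophage and leukocyte markers (both RPKM, linear axes); points are libraries. The 5 fresh TE libraries have 8.83 to 15.3 RPKM of AIF1 with marker sums below 1, and the other 15 libraries have at most 1.85 RPKM of AIF1 with sums of at least 1.66.

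Relatives of the 6 genes were examined from lists, to be read against the 69% of all tested genes that were higher and 6.66% that were lower in vitrified TE. These shares of all genes were 49.4% and 15.7% per M listed-gene reads, 35.5% and 27.4% with median-ratio scaling and 26.2% and 38.7% with quantile normalization. In whole embryos 26.9% of all genes were higher and 3.94% lower. Of 14 tested members of the LY6/uPAR family other than PINLYP and SSLP1, 9 rose in vitrified TE and none fell, with a median log2 difference of 0.19 beside 0.18 over all genes. Quantile scaling gave 5 higher and 3 lower and median-ratio scaling 7 and 3. LY6G5B had 2.19 ± 0.879 RPKM in vitrified TE and 0.252 ± 0.136 in fresh TE (limma adjusted p = 1.1e-06). LYPD3, on chromosome 18 like PINLYP (51991410 to 51995823), stood at 0.996 ± 0.150 RPKM in vitrified TE and 0.232 ± 0.0410 in fresh TE (limma adjusted p = 3.1e-06). LYPD5 had 0.275 ± 0.0601 RPKM in vitrified TE and was listed at 0 in all fresh TE libraries. In whole embryos, LYPD5 and LYPD3 were the 2 of 14 past the threshold, beside 30.9% of all genes, and both were higher in vitrified embryos (0.50 and 0.43, limma adjusted p = 8.4e-05 and 0.020). Of other beta-defensins and antimicrobial genes 11 were found, and only WFDC2 and LTF had enough reads to be tested. Neither passed in TE or in whole embryos. WFDC2, a secreted protease inhibitor, had 0.0811 ± 0.0607 RPKM in vitrified TE and 0.0327 ± 0.0167 in fresh TE.

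Of 29 tested peroxiredoxin and thioredoxin genes other than PRXL2A, 17 were higher and 3 lower in vitrified TE (median log2 difference 0.33). The counts turned to 6 higher and 15 lower under both median-ratio and quantile scaling and to 9 and 9 per M listed-gene reads. TXN2, the mitochondrial thioredoxin, had 14.7 ± 1.27 RPKM in vitrified TE and 2.20 ± 0.310 in fresh TE (limma adjusted p = 1.2e-10). PRDX2, a cytosolic peroxiredoxin, had 398 ± 107 RPKM in vitrified TE and 81.9 ± 14.9 in fresh TE (limma adjusted p = 3.5e-08). TXNDC12, a thioredoxin-like protein of the endoplasmic reticulum, had 1.496 ± 0.232 and 0.401 ± 0.0761 RPKM in vitrified and fresh TE (limma adjusted p = 2.9e-09). PRXL2C, of the same peroxiredoxin-like group as PRXL2A, was 0.35 higher as deposited (limma adjusted p = 2.2e-04), but stood at -0.21 and -0.26 under median-ratio and quantile scaling. In whole embryos 6 of the 29 were higher and 2 lower, beside 26.9% and 3.94% of all genes. Of 11 tested relatives and actin-bundling partners of AIF1, 9 were higher and 1 was lower (8 and 2 per M listed-gene reads, 5 and 2 under median-ratio scaling, 3 and 2 under quantile scaling). RAC1, a GTPase of membrane ruffles, was 1.51 higher (limma adjusted p = 2.0e-06) and ACTN4, an actinin that crosslinks actin, 0.65 higher (1.1e-07). ACTN1, another actinin, was 0.37 higher (limma adjusted p = 6.0e-06), and the blood cell GTPase gene RAC2 fell by 0.22 (9.2e-05). AIF1L, a relative of AIF1, was not tested, with mean levels of at most 0.0241 RPKM in any group.

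Of 13 tested phospholipase A2 genes and inhibitors, 5 were higher and 4 lower (median log2 difference 0.03). The counts turned to 3 and 6 per M listed-gene reads, 3 and 8 under median-ratio scaling and 1 and 9 under quantile scaling. PLA2G7, a secreted enzyme that degrades platelet-activating factor, fell to 0.00919 ± 0.00837 RPKM in vitrified TE, against 1.41 ± 0.718 in fresh TE (limma adjusted p = 2.6e-08). PLA2G15, a lysosomal phospholipase, fell to 5.71 ± 1.09, against 12.6 ± 1.204 in fresh TE (limma adjusted p = 1.4e-06). ANXA2, an annexin able to inhibit phospholipase A2, was 2.67 higher (limma adjusted p = 9.7e-08). In a list of X-linked MAGE and cancer-testis genes 4 were tested in TE, all of them MAGED or MAGEH genes. The MAGEA and MAGEB genes found had too few reads to be tested. MAGED1 fell by 0.65 (limma adjusted p = 1.2e-05), MAGED4B was 0.58 higher (0.0070), and MAGED2 and MAGEH1 did not pass. The list had 1 higher and 3 lower under median-ratio scaling and 0 and 3 under quantile scaling. Of 16 tested early conceptus secretions other than SSLP1, 6 were higher and 6 lower, and 3 and 8 under median-ratio or quantile scaling. IFNT was at 3.75 ± 0.959 RPKM in vitrified TE and 119 ± 19.9 in fresh TE, PAG2 at 1.73 ± 0.885 and 61.5 ± 18.1, and LGALS3, a galectin, at 162 ± 61.3 and 20.2 ± 5.26. Of the 9 trophectoderm markers, 6 were higher and 2 lower (3 and 4 under median-ratio or quantile scaling). All 6 tested hypoblast markers were higher as deposited and under the 3 other scalings. Of 4 tested epiblast markers, ZFP42 was higher and the others did not pass, and of endometrium markers only MUC1 was tested and did not pass.

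The genes lie on 6 different chromosomes. Of the 12 nearest listed genes on either side, 6 were tested in TE: 3 were higher in vitrified TE, 1 was lower and 2 did not pass, beside 69% higher and 6.66% lower of all tested genes. XRCC1, a DNA repair gene 20.4 kb from PINLYP, was 0.37 higher (limma adjusted p = 3.0e-06) and PRRC2A, 14.4 kb from AIF1, 0.98 higher (1.6e-10). HYLS1, 156 kb from SSLP1, was higher in vitrified TE (0.39, limma adjusted p = 0.0018) and in vitrified embryos (0.65, limma adjusted p = 0.0020). USP27X, a ubiquitin protease gene 56.2 kb from PAGE4, fell to 0.361 ± 0.159 RPKM in vitrified TE, against 1.10 ± 0.212 in fresh TE (limma adjusted p = 9.5e-07). TSPAN14 beside PRXL2A and NCR3 beside AIF1 did not pass in TE, and the neighbours IRGQ, DYDC1, PPP1R3F, ACRV1, ZNF705A and EBD had too few reads to be tested. Table entries named RF01233 and H2B have listed spans of 122 and 24.4 Mb that cover PAGE4 and AIF1, and their levels per span were near 0.

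Genes most like each of the 6 over the 20 libraries were taken as those with the highest Pearson r of log2(RPKM + 1). All such values share the split of fresh TE from the rest and its library differences, and are descriptions. PRXL2A and DEFB were in each other's top 3 (r = 0.98). PAG11, a pregnancy-associated glycoprotein, came first for PINLYP (r = 0.96), ahead of TCHHL1 and GPAM (0.96 each), the last an acyltransferase of triglyceride synthesis. PAQR8, a membrane progestin receptor, and EPHX2, an epoxide hydrolase, followed for PRXL2A (0.97 each). For AIF1 they were GPAM, the interleukin receptor gene IL11RA and ANKRD1 (0.97, 0.96 and 0.96), and for DEFB FAM167A and the fatty acid carrier SLC27A6 (0.98 each). SSLP1 was most like HKDC1, a hexokinase (0.87), AKR1B1, an aldose reductase (0.87), and AK4, an adenylate kinase (0.84). PAGE4 had the weakest likeness, to CMPK1, MCTS1 and HIST1H2AC (0.82, 0.81 and 0.81). Reads per library were few for TCHHL1 (0 to 26), FAM167A (0 to 23) and HIST1H2AC (2 to 26), which limits their r values. Among the 6 genes themselves r ranged from 0.47 between PAGE4 and SSLP1 to 0.98.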

How the data were processed

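Bovine RNA sequencing values of 20 libraries were taken from the deposited table. FastQC, STAR 2.5.3a, Partek and the UMD3.1 build are named, per the submitters' processing notes. Not given in the sources used here: strand use and the counting rule. The values, deposited by the authors, are RPKM with 0.01 added, as their spacing shows. With 0.01 removed and values multiplied by genomic span, each library has its own smallest step, taken as 1 read, and 94.5 to 95.8% of values under 1000 reads were whole to within 0.1 read. Read totals came from these steps, and their number limits the precision of low values.

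Genes with at least 10 reads in at least 2 libraries were tested (10599 of 15542). log2(value + 1) was fitted with limma 3.58.1 (trend, robust, R 4.3.3, statmod 1.5.0), with a mean for each group and 1 shared spread, tested on simulated data, and adjusted p under 0.05 were called. The plan allowed for counts, and the limma test for normalized values was used. Same-numbered samples were not treated as pairs. The 6 genes and the 12 lists (247 symbols, 155 found, 112 tested, RefSeq synonyms used) were chosen with earlier results of these data known. Named are the 6 genes, the 3 most alike genes of each, nearest neighbours and up to 3 list members with the smallest p in TE. RAC2, PRXL2C, AIF1L, LTF, MAGED2, MAGEH1, CSF1R, CD163, C1QA, SPI1, APOA1 and KRT18 were named after their values were seen. Alternatives were another pseudocount, no filter, 3 other scalings, fewer groups, averaged libraries, a replicate block and each library left out.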

Additional observations from a re-analysis of the deposited data

Results flagged for a closer look

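PINLYP in fresh TE 5, at 795 RPKM, lay far from the other 4 fresh TE libraries (394 to 481 RPKM). It was the only lone value among 18 sets of gene and group values examined, and chance marks about 1 set in 20. Without that library the difference of vitrified minus fresh TE was -3.52 on the log2 scale, against -3.69 with it.

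SSLP1 was higher in both vitrified embryos than in all fresh embryos (1.12 on the log2 scale) and lower in all vitrified TE than in all fresh TE. PRXL2A had the same opposite order of libraries, 0.61 higher in vitrified embryos and lower in vitrified TE, but it did not pass the threshold in whole embryos (limma adjusted p = 0.081) and its difference there was 0.28 to 0.37 with quantile normalization, a replicate block or median-ratio scaling. The difference between these effects was not tested, because the TE contrast was used to pick the genes.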

How the results depend on the processing

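In whole embryos 2852 genes were higher and 418 lower as reported. Median-ratio scaling gave 1111 and 755, quantile normalization 920 and 651, and a fit of only the 2 groups compared gave 236 lower. Leaving out a library gave 962 to 3107 higher and 175 to 470 lower, with both lowest counts (962 and 175) without vitrified embryo 2, and 235 lower without vitrified embryo 1. In TE 7311 were higher and 706 lower. Median-ratio scaling gave 3759 and 2903, quantile normalization 2776 and 4100, per M listed-gene reads 1665 lower and no filter 1555 lower. Leaving out a library gave 7020 to 7386 higher and 648 to 718 lower. The causes were not tested.

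The replicate block gave 254 lower genes in whole embryos, and SSLP1 at 0.83 (limma adjusted p = 0.015). Same-numbered vitrified and fresh samples did not deviate together (r of -0.165 to -0.00406 over genes). Whole embryos were not compared with TE in this way. The check cannot show whether equal numbers share an origin or a batch. With a library left out, PAGE4 in whole embryos ranged from -2.21 to 0.73, positive without vitrified embryo 2. DEFB ranged from -0.0905 to 0.0247, positive without vitrified embryo 2 and without fresh embryo 1 (0.012), 2 (0.013) or 5 (0.0083). None of these passed the threshold. In TE all 6 genes kept their direction under the 28 alternatives, which adds no support, because they were picked on that contrast. AIF1 values of 6 to 20 reads limit its folds.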
